A study of Mus musculus with 30 samples.

Results

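The genes described here are 5 that gauge red blood cells in a tissue, namely the adult alpha globin genes Hba-a1 and Hba-a2, the adult beta globin genes Hbb-bs and Hbb-bt, and Alas2, which encodes the erythroid 5-aminolevulinate synthase. They were taken by symbol from the count tables, in which all 5 are listed among 26264 gene symbols. The tissue was the tibialis anterior, a fast muscle of the shin, from mice of both sexes. It was either uninjured or collected at 4, 7, 11 or 15 days from volumetric muscle loss, in which a piece of muscle is cut out. There were 3 male and 3 female libraries at each of the 5 times, 10 groups and 30 libraries in all. The sources used here give no strain or age. They also do not say whether the libraries of a group came from separate animals, and the p-values then rest on the spread between libraries only, which may be technical.

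Adult haemoglobin is a tetramer of alpha and beta globin chains, each holding a haem group, and its mRNA dominates the RNA that reticulocytes carry into the blood. Erythroid cells make haem through Alas2, whereas other cells, muscle included, start the same pathway with Alas1. Genes of the red cell program carry binding sites for the transcription factor Gata1 and for Klf1-type factors, which recognise GATA and CACCC sequences. In a bulk tissue these transcripts are read as a gauge of blood in the vessels or spilled into the wound.

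The 4 haemoglobin rows were empty but for 1 count. Hba-a2, Hbb-bs and Hbb-bt had 0 counts in every one of the 30 libraries, and Hba-a1 had 1 count in all, in the library of male day 4 replicate 2. Summed over the 30 libraries the tables hold 1142066138 counts. Taking 3 counts as the limit that a count of 0 allows, a count of 0 allows a level of up to 0.0524 CPM, the count scaled to a common library total, in the deepest library and up to 0.229 CPM in the shallowest. Such limits cover counting error only. The sources used here do not say whether globin RNA was removed when the libraries were made, so the counts and limits describe the libraries as sequenced and counted, and not the blood in the tissue. The haemoglobin rows therefore gave no level, fold change or ratio at any time, and their summed level was 0 in 29 of the 30 libraries. Of the 26264 symbols listed, 4373, or 16.7%, had 0 counts in all libraries, and 17.7% had at most 1 count in all. Hbb-b1 and Hbb-b2, the adult beta globin genes of another mouse haplotype, are listed as separate symbols and held 2 and 0 counts.

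The globin genes come in near-identical pairs, and the stretch of each coding sequence that holds its only differing base is shown, because a coding read that misses this base fits both genes of a pair. Coding positions are counted from 1 at the start codon, and the capital marks the base that differs. The stretches run from coding base 321 to 429 for the alpha genes and from 357 to 444 for the beta genes, and were read from GENCODE M21 transcripts.
Hba-a1: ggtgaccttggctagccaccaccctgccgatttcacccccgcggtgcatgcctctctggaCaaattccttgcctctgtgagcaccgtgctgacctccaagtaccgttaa
Hba-a2: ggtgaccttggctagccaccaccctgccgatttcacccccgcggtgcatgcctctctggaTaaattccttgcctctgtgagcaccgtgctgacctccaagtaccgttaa
Hbb-bs: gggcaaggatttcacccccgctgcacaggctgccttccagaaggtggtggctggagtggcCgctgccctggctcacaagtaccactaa
Hbb-bt: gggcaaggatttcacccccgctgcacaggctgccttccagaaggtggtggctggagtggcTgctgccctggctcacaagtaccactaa
The coding sequences of Hba-a1 and Hba-a2 were 429 bases long and 99.8% identical, with the single substitution C381T. Hbb-bs and Hbb-bt were 444 bases long and 99.8% identical, with the single substitution C417T. Over whole transcripts, 56.5% of the 100-base windows of Hba-a1 and 74.5% of those of Hba-a2 occurred in another gene, and in each case that gene was the partner. For Hbb-bs the share was 62.6% and for Hbb-bt 54.8%. This left 261 windows that only Hba-a1 holds, 116 for Hba-a2, 198 for Hbb-bs and 273 for Hbb-bt. Alas2 shared none of its 1938 windows with another gene.

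Sharing of this size was also seen in other listed genes. Of 147 listed genes with a protein-coding transcript, 7 shared over 50% of their windows, and these were the 4 haemoglobin genes, Ftl1, Gp1bb and Itgam. Ftl1, the ferritin light chain, shared 60.4% of its windows and held 2233608 counts over the 30 libraries. Gp1bb, a platelet glycoprotein chain, shared 92.6% and held 2387 counts, and Itgam, a myeloid integrin chain, shared 71% and held 59255 counts. The partners of Ftl1 included Ftl1-ps1 and Ftl2-ps, those of Gp1bb were Gm49601 and Sept5, and that of Itgam was Gm49368. Their rows therefore do not show how reads shared by a globin pair were counted. The sources used here do not say how reads shared between genes were counted, and the part of sharing in the 0 counts was not tested.

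The promoters of the 5 genes were searched for GATAA and CACCC. The window holds the 250 bases before the transcription start, from the RefSeq table for GRCm38.p6, while the count tables were made on mm39, so the coordinates apply to GRCm38.p6 only. Capitals mark GATAA and CACCC and their reverse complements TTATC and GGGTG. The windows of Hba-a1 at chr11:32283422-32283671 on the plus strand, of Hbb-bs at chr7:103827929-103828178 on the minus strand and of Alas2 at chrX:150547167-150547416 on the plus strand are given 5′ to 3′.
Hba-a1: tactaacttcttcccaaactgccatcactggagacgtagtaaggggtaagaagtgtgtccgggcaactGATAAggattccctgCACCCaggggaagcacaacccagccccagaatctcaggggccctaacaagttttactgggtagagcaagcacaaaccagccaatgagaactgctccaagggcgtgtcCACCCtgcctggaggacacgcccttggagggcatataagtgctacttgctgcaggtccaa
Hbb-bs: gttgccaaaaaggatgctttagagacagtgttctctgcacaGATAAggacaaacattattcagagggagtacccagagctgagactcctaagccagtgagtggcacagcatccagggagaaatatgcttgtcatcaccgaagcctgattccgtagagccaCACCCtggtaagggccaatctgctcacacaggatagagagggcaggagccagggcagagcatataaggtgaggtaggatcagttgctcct
Alas2: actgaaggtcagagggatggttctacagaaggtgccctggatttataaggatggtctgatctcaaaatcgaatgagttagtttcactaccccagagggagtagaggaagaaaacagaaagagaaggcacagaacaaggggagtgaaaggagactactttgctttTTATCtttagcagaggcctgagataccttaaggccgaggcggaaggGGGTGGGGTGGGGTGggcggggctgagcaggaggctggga
All 5 genes matched the table, and all 5 windows held GATAA and CACCC on one strand or the other. Of 32851 promoter windows of this length, 22.6% held GATAA, 52% held CACCC and 10.1% held both. The windows of Hba-a1 and Hba-a2 are the same sequence but for a shift of a few bases, so their matches are not separate. Both motifs were picked as known ones of red cell genes. The window of Alas2 had 1 match to GATAA and 3 adjacent matches to CACCC, all as reverse complements, and that of Hba-a1 had 1 and 2. The windows of Alas1, the enzyme of other cells, held CACCC and no GATAA. That of Bpgm, which is among the red cell enzymes listed below, held neither. A match is a run of letters and does not show that a factor binds there.

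The other haemoglobin chains were also at or near 0. The embryonic genes Hba-x, Hbb-bh1 and Hbb-y had 3, 1 and 4 counts over the 30 libraries, and Hbb-bh2 had 0. The theta globin genes Hbq1a and Hbq1b had 60 and 41 counts, found in 13 and 14 libraries. None of these 6 genes had enough counts to be tested. Globins of other cells were present. Mb, the oxygen-storing myoglobin of muscle fibres, had 3706 to 16058 CPM in uninjured muscle, and its log2 fold change was -2.51 ± 0.53 (SE) at day 4 and -1.34 ± 0.51 at day 11, both past edgeR's test at an adjusted p under 0.05, but with library size alone the day 11 value was -0.23 and was not called. Cygb, the cytoglobin of fibroblast-like cells, rose at all 4 times, by 0.59 ± 0.19 on the log2 scale at day 4 and 2.01 ± 0.20 at day 15.

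**Figure D1:**
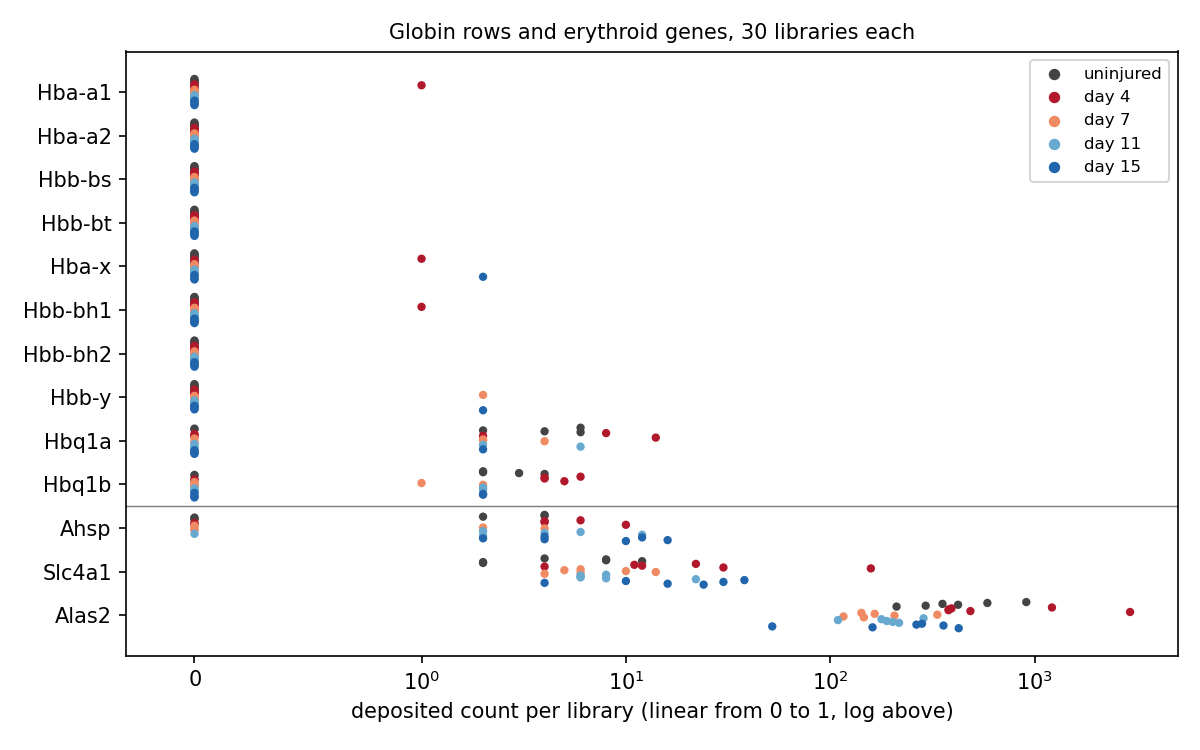
Deposited counts (x axis, linear from 0 to 1 and logarithmic above) of 10 globin genes and 3 erythroid genes (rows), 1 point per library, coloured by time after injury. The 4 adult haemoglobin rows sit at 0 except 1 count of Hba-a1, while Alas2 runs from 52 to 2930 counts.

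Facts of the whole series that touch these values are few. Total counts were 13089999 to 57277336 per library. The filter on low counts kept 17136 genes and removed 9128, and Alas2 was the only 1 of the 5 genes that passed. Scaling used TMM factors, which correct for a few very abundant genes taking much of a library. They averaged 0.527 in uninjured muscle, where muscle fibre transcripts are most abundant, and 1.3, 1.19, 1.16 and 1.08 at days 4, 7, 11 and 15. The labelled tissue matched its markers, with 11 muscle fibre genes summing to 344420 to 493222 CPM in uninjured muscle. The library of female day 11 replicate 3 had Ddx3y at 76.7 CPM, a Y-linked gene that was at 0 in the other 14 female libraries, and Xist at 0.146 CPM, and it was kept under its label. Female day 4 replicate 3 stood apart in its erythroid genes, and results are given with and without it where it changes them.

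Alas2 was detected in every library, with 52 to 2930 counts. In uninjured muscle its scaled levels were 40.3, 23.5 and 13.5 CPM in the males and 19.4, 12.2 and 9.28 CPM in the females. At day 4 they were 18.2, 6.05 and 6.21 CPM in the males and 5.5, 5.95 and 48.7 CPM in the females. Thus 4 of the 6 libraries at day 4 lay below every uninjured library, 1 lay inside the uninjured range, and female replicate 3 lay above it, at the highest level of all 30 libraries. At day 7 the levels were 6.53, 2.39 and 7.43 CPM in the males and 5.36, 2.7 and 2.28 CPM in the females. At day 11 they were 8.75, 4.71 and 3.06 CPM in the males and 5.97, 4.38 and 5.91 CPM in the females. All 12 libraries of days 7 and 11 lay below all 6 uninjured libraries. At day 15 they were 9.09, 11.9 and 14.5 CPM in the males and 3.2, 5.78 and 16.5 CPM in the females, so that the range overlapped the uninjured one.

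Alas2 fell at days 7 and 11. Against uninjured muscle, with both sexes weighted equally, its log2 fold change was -2.12 ± 0.50 (SE) at day 7, a 4.34-fold lower level (adjusted p = 5.62e-04, edgeR's quasi-likelihood test with Benjamini-Hochberg adjustment over 17136 genes). It was -1.78 ± 0.49 at day 11, 3.43-fold lower (adjusted p = 0.00244, edgeR). The values at day 4, -0.39 ± 0.48 (adjusted p = 0.466), and at day 15, -0.90 ± 0.48 (adjusted p = 0.1), did not pass. A call downward was common here: 29.9% of all tested genes were called lower at day 7 and 29.7% at day 11. At days 4 and 15 the shares were 33% and 29.3%. A joint test over the 5 times gave Alas2 an adjusted p of 0.00126 (edgeR), as it called 87.3% of genes. Without female day 4 replicate 3 the day 4 value became -1.29 (adjusted p = 0.00799) and the day 15 value stayed at -0.90 with an adjusted p of 0.0423. Without female day 15 replicate 3 the day 15 value was -1.36 (adjusted p = 0.0208). Without female day 11 replicate 3 the day 11 value was -1.86 (adjusted p = 0.00383). In bulk tissue, fewer cells of a type and less RNA per cell cannot be told apart.

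The size of these changes moved with the scaling. With library size alone, uninjured muscle had Alas2 at 22.3, 13 and 8.07 CPM in the males and 9.39, 6 and 4.5 CPM in the females. Its log2 fold change was then 0.88 at day 4 (adjusted p = 0.0631), -1.02 at day 7 (adjusted p = 0.0369), -0.64 at day 11 (adjusted p = 0.176) and 0.11 at day 15 (adjusted p = 0.831). The median log2 fold change of all tested genes was 0.17, 0.24, 0.32 and 0.26 at days 4, 7, 11 and 15 with TMM factors, and 1.47, 1.42, 1.46 and 1.30 with library size alone. Alas2 was below the median of all genes at all 4 times under both scalings. The fall at day 7 was called under both, and that at day 11 with TMM factors but not with library size alone. At day 4, 12603 genes were called higher and 1482 lower with library size alone, against 6864 and 5662 with TMM factors.

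**Figure D2:**
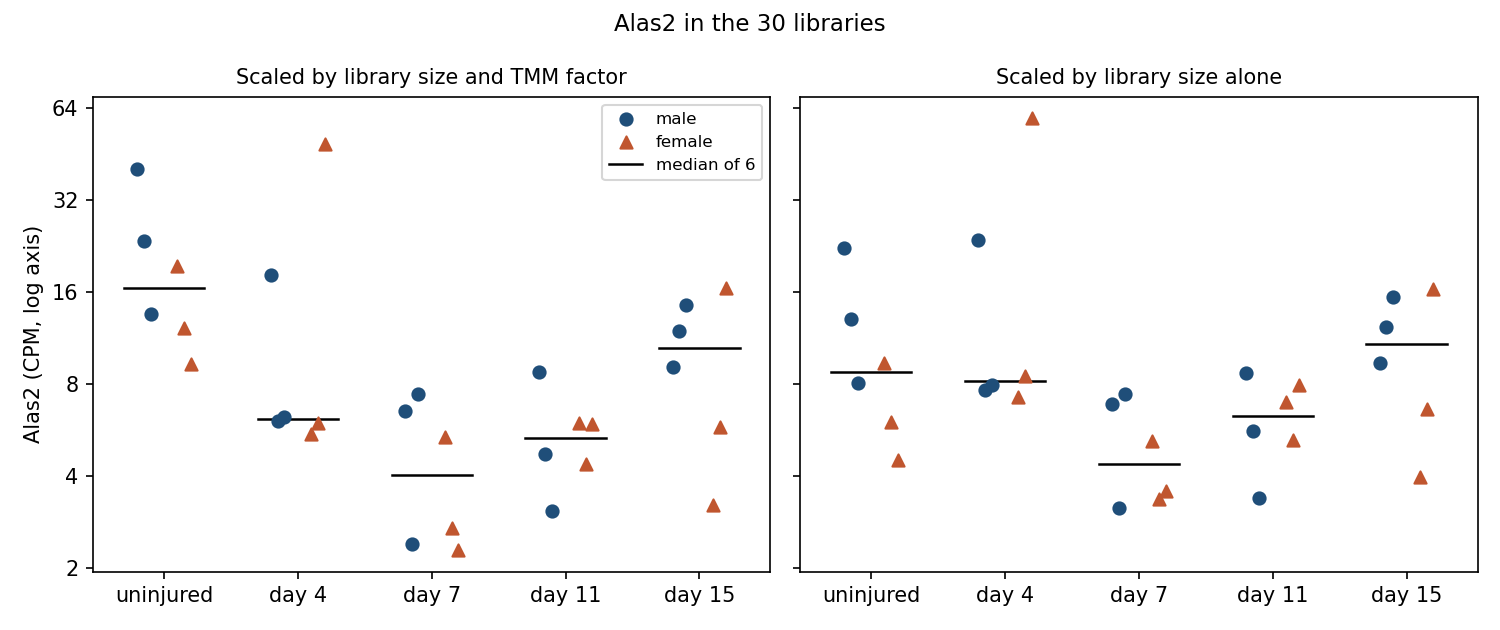
Alas2 level in CPM (y axis, log scale) by time after injury (x axis) in the 30 libraries, scaled with TMM factors (left) or by library size alone (right), with males as circles, females as triangles and a line at the median of 6. Days 7 and 11 lie below all uninjured libraries on the left and overlap them on the right, and female day 4 replicate 3 is highest in both panels.

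Between the injured times, Alas2 was lower at day 7 than at day 4 by a log2 fold change of -1.73 ± 0.49 (adjusted p = 0.00927, edgeR), in a contrast in which 16.7% of genes were called lower. Without female day 4 replicate 3 this was -0.83 (adjusted p = 0.114). No other step passed. Day 11 against day 7 gave 0.34 ± 0.49 (adjusted p = 0.971), where 0.0584% of genes were called either way. Day 15 against day 11 gave 0.88 ± 0.49 (adjusted p = 0.341), where 4.24% were called. Day 15 against day 4 gave -0.51 ± 0.48 (adjusted p = 0.387), where 52.1% were called, and 0.39 without female day 4 replicate 3. In the order of medians the times ran from day 7 at 4.03 CPM through day 11 at 5.31, day 4 at 6.13 and day 15 at 10.5 to uninjured muscle at 16.5 CPM. Neighbours in this order overlapped in range, and only the contrasts given above were tested.

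No sex difference in Alas2 passed the test. In uninjured muscle the female to male log2 difference was -0.92 ± 0.68 (adjusted p = 0.611, edgeR), where 0.642% of genes were called. The fold changes against uninjured muscle of the same sex were -1.34, -2.25, -2.23 and -1.12 in males at days 4, 7, 11 and 15, and 0.56, -1.99, -1.33 and -0.67 in females. The joint test of a sex difference in the response gave an unadjusted p of 0.335 and an adjusted p of 0.949 (edgeR), where 0.035% of genes were called. That test and the female day 11 value count female day 11 replicate 3 as female, though its sex-linked genes go against its label. The joint test is given only with that library. The widest gap was at day 4, with the female response 1.90 ± 0.96 above the male one (unadjusted p = 0.0587, adjusted p = 0.651, edgeR), and it was 0.09 without female day 4 replicate 3.

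Ratios within a library do not depend on scaling, and 3 were computed for Alas2 after the haemoglobin rows were seen to be empty. The ratio of Alas2 to Alas1 counts had a median of 0.0595 in uninjured muscle, with a range of 0.0415 to 0.266. Its medians at days 4, 7, 11 and 15 were 0.112, 0.05, 0.0641 and 0.0981. The values ran between 0.0629 and 0.777 on day 4 and between 0.0359 and 0.0892 on day 7, and between 0.0327 and 0.162 on day 11 and 0.0632 and 0.228 on day 15, and every time overlapped uninjured muscle. No difference from uninjured muscle passed the test, with mean log2 differences of 1.06 ± 0.69 (SE), -0.44 ± 0.45, -0.08 ± 0.52 and 0.54 ± 0.48 and adjusted p-values of 0.379, 0.589, 0.881 and 0.576 (exact two-sided permutation test, 6 against 6 libraries, Benjamini-Hochberg over 12 tests). The ratio to Fech, the last enzyme of haem synthesis, gave adjusted p-values of 0.589, 0.589, 0.628 and 0.292 in the same exact permutation tests. Both denominators themselves fell after injury, as given below.

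Against Pecam1, 1 of 14 listed endothelial genes, which marks vessel lining, Alas2 was lower at days 7, 11 and 15. The ratio of Alas2 to Pecam1 counts had a median of 0.123 in uninjured muscle (0.076 to 0.267). Its medians at days 4, 7, 11 and 15 were 0.0566, 0.0373, 0.0423 and 0.0511. The highest library was at 0.538 on day 4, 0.0569 on day 7, 0.0584 on day 11 and 0.0842 on day 15. All 6 libraries of day 7 and all 6 of day 11 lay below every uninjured library. The mean log2 differences were -1.80 ± 0.34 at day 7 and -1.72 ± 0.35 at day 11, each with p = 0.00216, the smallest that 6 against 6 libraries can give (exact permutation test, adjusted p = 0.013). At day 15 the difference was -1.53 ± 0.45 (adjusted p = 0.026, exact permutation test), and leaving out any of 9 of the 12 libraries compared gave an adjusted p of 0.0519, all but female uninjured replicate 3, male day 15 replicate 3 and female day 15 replicate 3. At day 4 it was -0.50 ± 0.65 (adjusted p = 0.589, exact permutation test). Pecam1 itself had log2 fold changes of -0.28, -0.32 and -0.04 at days 4, 7 and 11 with TMM factors, which did not pass the test, and rose by 0.54 ± 0.15 at day 15, while with library size alone it was at 1.03 at day 4 and was called. The 3 ratios share the Alas2 counts, and each time shares the uninjured libraries. No other endothelial gene was used in a ratio, and the list did not move as 1. With library size alone, mean Pecam1 went from 71.7 CPM in uninjured muscle to 125 at day 7 and 153 at day 11. Mean Flt1, another endothelial marker, went from 78 CPM to 57.4 and 56.1. By that scaling 12 of the 14 were called higher at both days, with 0 lower at day 7 and 1 at day 11. Among all 17136 tested genes it called 12665 higher and 1212 lower at day 7, and 12652 and 1385 at day 11.

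**Figure D3:**
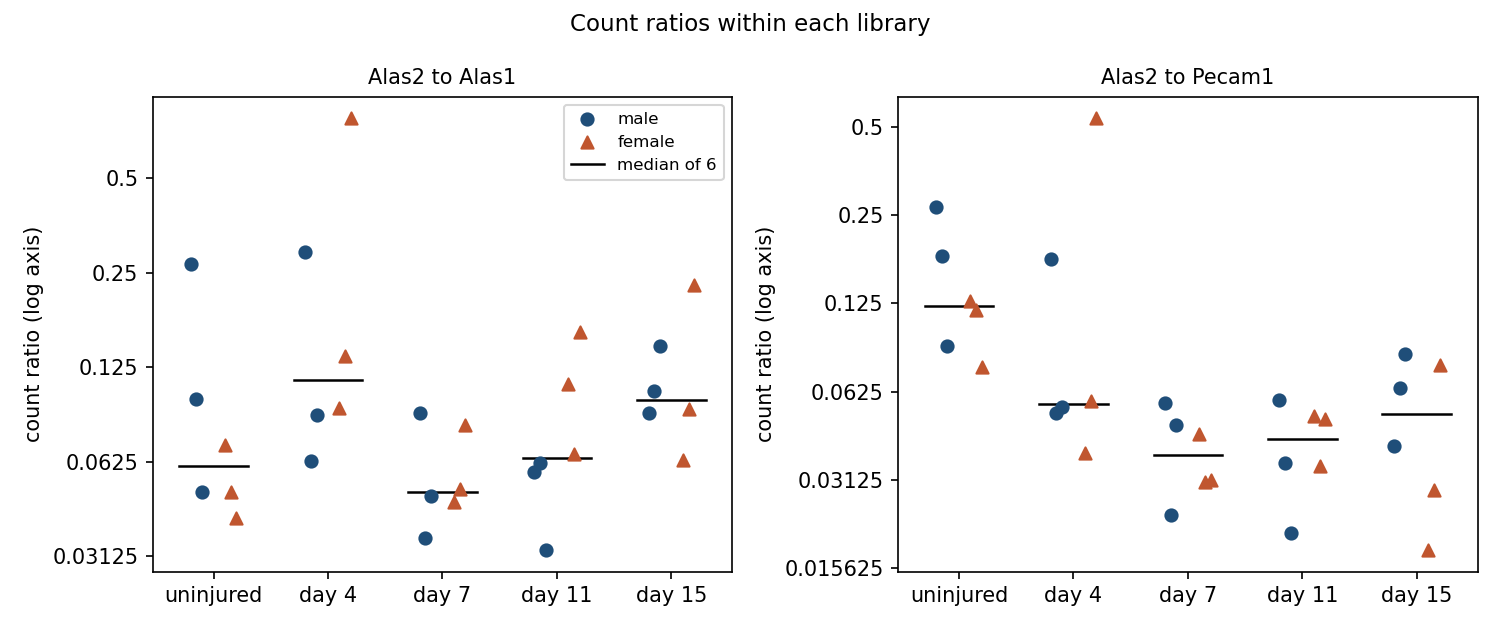
Count ratios within each library (y axes, log scale) by time after injury, Alas2 to Alas1 on the left and Alas2 to Pecam1 on the right, with males as circles, females as triangles and a line at the median of 6. The ratio to Alas1 overlaps uninjured muscle at every time, and the ratio to Pecam1 lies below it at days 7 and 11.

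The likeness of other genes to Alas2 was measured as Pearson r of log2 CPM over the 30 libraries, among 13731 genes with a mean of at least 1 CPM. The libraries share their depth and their groups, and r is given as a description. After the mean of each of the 10 groups was subtracted, the 10 nearest genes included Ppp1r3c, a glycogen-targeting subunit of protein phosphatase, at 0.80, Lrrc30 at 0.79, Tmem223 at 0.78, and Mrps26, Cgrrf1 and Hsd17b14 at 0.77. Gm20522 and Gcdh, a mitochondrial dehydrogenase of amino acid breakdown, were at 0.76, and Actn3, the alpha-actinin of fast muscle fibres, was at 0.75. Only 4 of the 10 nearest genes were still among the 10 nearest without female day 4 replicate 3, so most of this order rests on that library. Ppp1r3c, Mrps26 and Gcdh were then at ranks 4, 9 and 1, with r of 0.77, 0.74 and 0.79. Lrrc30, Tmem223, Hsd17b14, Cgrrf1, Gm20522 and Actn3 were at ranks 28, 29, 32, 36, 49 and 61. Without subtraction the 5 nearest included Hacd1 at 0.73 and Tuba4a, Msrb1 and Asb5 at 0.70.

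Genes that mark red cells themselves were low. Per kilobase of transcript, with library size alone, the median over the 30 libraries was 3.7 CPM for Alas2 and 0.0511 CPM for Slc4a1. Slc4a1, the anion exchanger of the red cell membrane, had 2 to 158 counts per library and 496 in all. Ahsp, the chaperone of free alpha globin, had 0 to 16 counts and 114 in all. Female day 4 replicate 3 had the most Slc4a1, as it had of Alas2. Gata1, the erythroid transcription factor, had 24 counts in 8 libraries, and Klf1, a red cell activator, 241 counts in 28. Epb42 and Rhag, of the membrane, had 35 and 30 counts, and Trim58 had 0.

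With TMM factors Slc4a1 and Ahsp were called higher than in uninjured muscle at day 15 and at no other time. Slc4a1 was at 0.177, 0.321 and 0.305 CPM in uninjured males and 0.551, 0.0833 and 0.0879 CPM in uninjured females. At day 15 it was at 1.23, 0.451 and 1.22 CPM in the males and 0.247, 0.574 and 0.931 CPM in the females. Thus 4 of the 6 libraries of day 15 lay above all uninjured libraries, and the groups overlapped. Ahsp was at 0.0811 to 0.574 CPM at day 15 against 0 to 0.177 CPM in uninjured muscle, with overlap. The log2 fold change of Slc4a1 at day 15 was 1.58 ± 0.67 (adjusted p = 0.0398, edgeR), where 39.7% of genes were called higher. The fitted change of Ahsp, 3.93 ± 1.29 (adjusted p = 0.00943, edgeR), depends on the prior count, since 3 uninjured libraries held none. The call for Slc4a1 was lost when any of 12 of the 30 libraries was left out, with the lowest value, 1.33 (adjusted p = 0.104), without female day 15 replicate 3. With library size alone Slc4a1 was also called higher at day 4, at 2.18, and without female day 4 replicate 3 its TMM-scaled value at day 4 was -0.17. Alas2 was not called higher at day 15.

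Libraries with more Alas2 had more Slc4a1 after injury. Over the 24 injured libraries r of log2 CPM was 0.80 with Slc4a1 (permutation p = 1.00e-05, the smallest that 100000 resamples can give, adjusted p = 4.00e-05 over 4 relations) and Spearman's rho was 0.72 (permutation p = 1.20e-04). Without the 2 libraries farthest from the median of Alas2, female day 4 replicate 3 and male day 4 replicate 1, r was 0.75. With Ahsp r was 0.37 (permutation p = 0.0746, adjusted p = 0.111), rho was 0.29 (permutation p = 0.164) and r without those 2 libraries was 0.39. After subtraction of group means r was 0.81 with Slc4a1 and 0.42 with Ahsp, and these values were not tested. The permutations moved libraries across groups, so their p-values do not separate differences between groups from those within groups. Over the 6 uninjured libraries r was 0.41 with Slc4a1 and 0.75 with Ahsp (exact permutation p = 0.436 and 0.0833, adjusted p = 0.436 and 0.111), and rho was 0.54 and 0.75 (exact permutation p = 0.297 and 0.106). Without male replicate 1 and female replicate 3, the 2 farthest, r was 0.68 and 0.48 over the other 4, so the relation could not be shown in uninjured muscle. The counts of Ahsp are few, and these pairs were chosen after the data were seen.

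**Figure D4:**
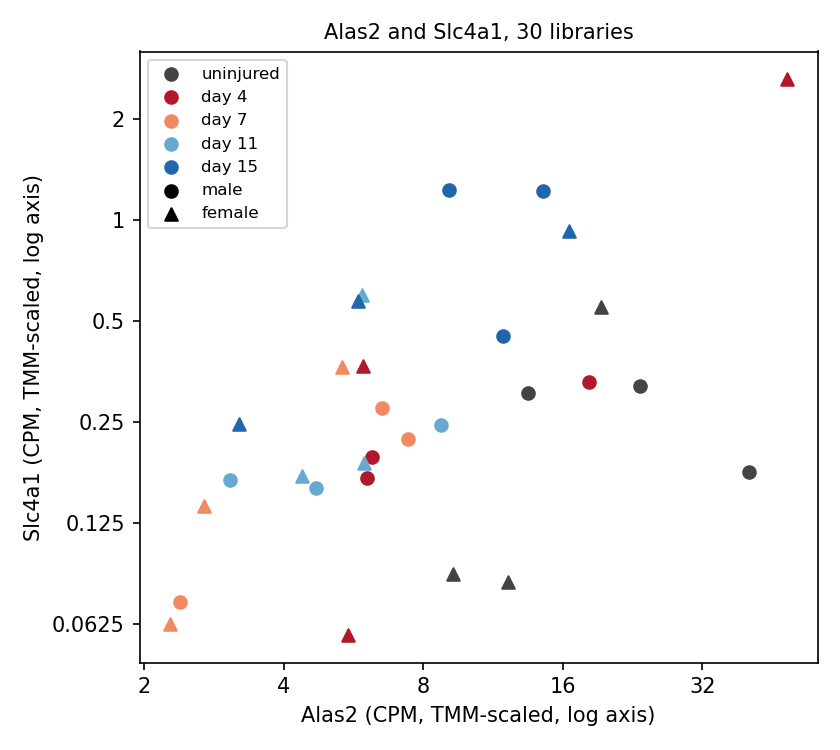
Slc4a1 (y axis) against Alas2 (x axis), both in CPM with TMM factors on log scales, 1 point per library, coloured by time after injury, with males as circles and females as triangles. Female day 4 replicate 3 lies highest on both axes, at 48.7 CPM of Alas2 and 2.63 CPM of Slc4a1.

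Most genes of haem synthesis were called lower after injury with TMM factors, and fewer were with library size alone. Of 13 genes for the enzymes and their mitochondrial transport, 11 were called lower and 0 higher at each of the 4 times, with median log2 fold changes of -1.15, -0.95, -1.09 and -1.09 at days 4, 7, 11 and 15. The 11 lower calls also stood in each count without female day 4 replicate 3 or without female day 11 replicate 3, though without the latter 1 gene was also called higher at day 4. The shares of all genes called lower at those times were 33%, 29.9%, 29.7% and 29.3%. Those called higher were 40.1%, 41.6%, 42.7% and 39.7%. Alas1, the first enzyme in non-erythroid cells, was 152 to 274 CPM in uninjured muscle, 43.9 to 96.3 CPM at day 4 and 27.8 to 153 CPM at day 7. Its log2 fold change was -1.84 ± 0.27, -1.55 ± 0.27, -1.64 ± 0.27 and -1.53 ± 0.27 at the 4 times. Fech, the ferrochelatase that inserts iron, went from 152 to 260 CPM in uninjured muscle to 43.2 to 65.7 CPM at day 15, and its fold changes were -1.37 ± 0.22, -1.72 ± 0.22, -1.99 ± 0.22 and -1.89 ± 0.22. With TMM factors Fech did not overlap uninjured muscle at any time, and how many of all genes did likewise was not counted. Under library size alone it overlapped at days 4 and 7, at 83.4 to 108 and 41.9 to 100 CPM beside 84 to 128 CPM uninjured. Per kilobase in uninjured muscle, with library size alone, the medians were 37 CPM for Alas1, 15.4 for Fech and 4.29 for Alas2.

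Between these ends, Urod, the uroporphyrinogen decarboxylase, was at -1.53 ± 0.18 at day 4 and Cpox, the coproporphyrinogen oxidase, at -1.45 ± 0.26. Alad, the enzyme that follows the synthase, was at -1.28 ± 0.14, and Uros, the uroporphyrinogen synthase, at -1.03 ± 0.15. Abcb10, a transporter of the inner mitochondrial membrane, was at -1.15 at day 4 and was called lower at all 4 times. Ppox was called lower at day 4 only, at -0.37 ± 0.15. Slc25a37, the mitoferrin of erythroid cells, passed at no time with all libraries, with values of 0.40, 0.37, 0.43 and -0.01. Without female day 11 replicate 3 it was called higher at day 4, at 0.38 (adjusted p = 0.0257, edgeR). With library size alone Slc25a37 was at 14.3 to 37.7 CPM in uninjured muscle and 58.8 to 84 CPM at day 4. Under library size alone the calls were 5 higher and 2 lower at day 4, beside 12603 and 1482 of all 17136 tested genes. The list median was then 0.15, beside 1.47 over all genes. At day 15 the calls were 4 higher and 5 lower, beside 11956 and 1360 over all genes. Alad, Uros and Ppox changed sign under that scaling at day 4, and Urod, Alad and Uros at day 7, while Alas1 was called lower under both scalings at both days. Fech was at -0.07 at day 4 under library size alone, which was not called, and was called lower at the other 3 times.

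**Figure D5:**
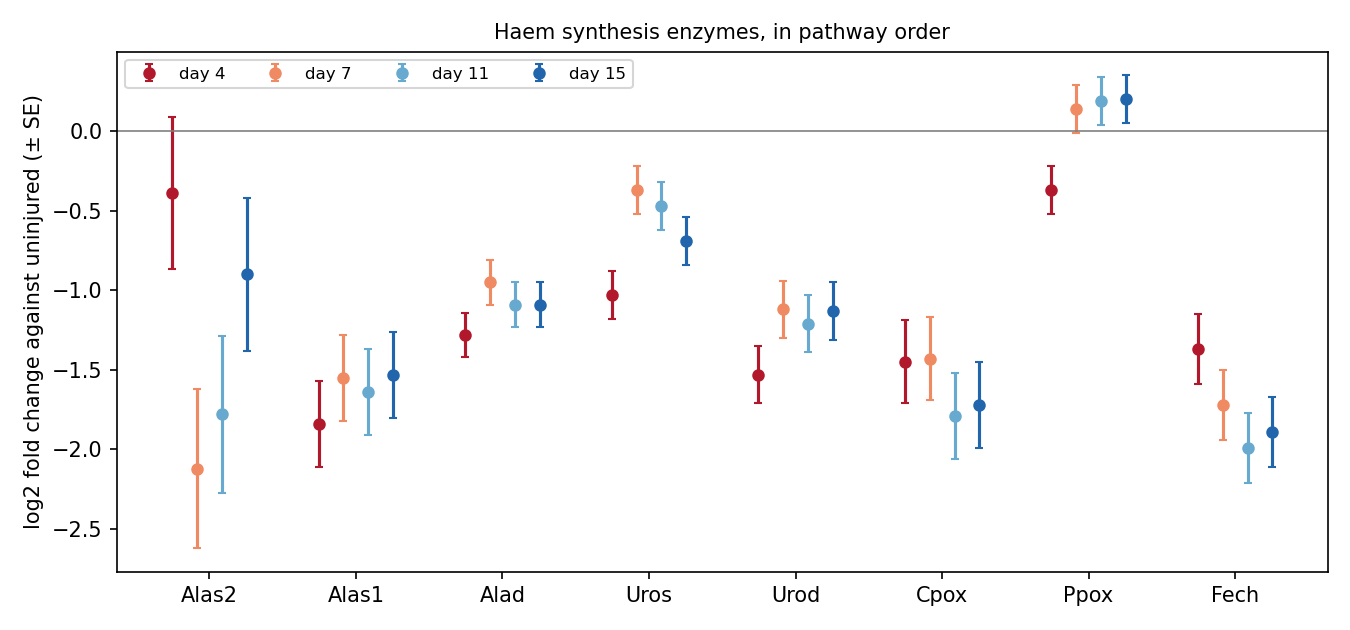
Log2 fold change against uninjured muscle (y axis, points with SE bars, TMM factors) at days 4, 7, 11 and 15 for the haem synthesis enzymes in pathway order (x axis), with Alas2 and Alas1 as the alternative first enzymes. Alas2 lies at -0.39 at day 4 and -2.12 at day 7, and Fech between -1.37 and -1.99.

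Membrane and skeleton genes of red cells split in both directions. Of 17 listed, 14 had enough counts to be tested, and 4, 4, 4 and 5 were called higher and 8, 8, 7 and 8 lower at the 4 times, with medians of -1.18, -1.54, -0.85 and -0.77. Among all tested genes the shares called higher were 40.1%, 41.6%, 42.7% and 39.7%. Those called lower were 33%, 29.9%, 29.7% and 29.3%. Tmod1, a cap of actin filaments, was at -2.99 ± 0.39 at day 15, Icam4, a red cell adhesion protein, at -2.59 ± 0.36 and Xk, a membrane protein of the Kell complex, at -2.22 ± 0.36. Scaling by library size alone gave 7 higher and 5 lower at day 4, beside 12603 and 1482 of all 17136 tested genes.

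Among 14 red cell enzymes, chaperones and late maturation genes, 12 could be tested, and with TMM factors 3 were called higher and 7 lower at day 4, with a median of -0.57. Bpgm, which makes the 2,3-bisphosphoglycerate that lowers the oxygen affinity of haemoglobin, fell from 171 to 220 CPM in uninjured muscle to 12.5 to 44.2 CPM at day 4, by -3.04 ± 0.34 on the log2 scale. Car2, a carbonic anhydrase, was at -2.13 ± 0.34 and Cd59a, an inhibitor of complement lysis, at -1.66 ± 0.25. At day 15, 1 was called higher and 3 lower, or 1 and 5 without female day 11 replicate 3. Among all tested genes 40.1% were called higher and 33% lower at day 4, and 39.7% and 29.3% at day 15. Under library size alone 7 of the 12 were called higher and 2 lower at day 4, beside 12603 and 1482 of all 17136 tested genes. Bpgm and Car2 were still called lower, at -1.76 and -0.84, and Cd59a was not called, at -0.37.

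Erythroid transcription and erythropoietin signalling genes had calls in both directions, with a share called higher at day 4 near that of all genes. Of 15 listed, 14 were tested, with 6 called higher and 3 lower at day 4, a median of 0.31, and 8 and 3 at day 15, a median of 0.71. Over all genes 40.1% were called higher and 33% lower at day 4, and 39.7% and 29.3% at day 15. Under library size alone 10 were called higher and 1 lower at day 4, beside 12603 and 1482 of all 17136 tested genes. Epor, the erythropoietin receptor, was 0.0919 to 0.458 CPM in uninjured muscle and 1.45 to 3.21 CPM at day 4, and it was higher by 3.02 ± 0.29 on the log2 scale at day 15. Lmo2, a partner of Tal1 in blood and endothelial cells, was higher by 1.32 ± 0.18 at day 15, and Stat5b, a signal transducer below the receptor, was at -1.78 ± 0.23. Tfrc, the transferrin receptor that brings in iron, was at -1.33 ± 0.27 at day 4, and at -0.04 under library size alone. Klf1 was at -0.48 ± 0.62 at day 4 and was called at no time, and its day 4 value was 0.79 under library size alone.

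Genes that clear free haemoglobin and haem were called in both directions. Of 12 listed and tested, 7 were called higher and 4 lower at both day 4 and day 15, with medians of 0.87 and 1.41, where 40.1% and 39.7% of all genes were called higher. At days 7 and 11, 6 were called higher and 4 lower, with medians of 0.84 and 0.79, where 41.6% and 42.7% of all genes were called higher. The shares of all genes called lower at the 4 times were 33%, 29.9%, 29.7% and 29.3%. With library size alone the day 4 calls were 11 higher and 0 lower, beside 12603 and 1482 of all 17136 tested genes. Hmox1, the haem oxygenase that opens the haem ring, was 6.17 to 13.9 CPM in uninjured muscle and 173 to 904 CPM at day 4, with no overlap. Its log2 fold change went from 5.17 ± 0.48 at day 4 to 3.33 ± 0.44, 2.37 ± 0.42 and 1.42 ± 0.41. Hp, the haptoglobin that binds free haemoglobin, was at 3.55 ± 0.69 at day 4 and 4.88 ± 0.72 at day 15, and Lrp1, which takes up haem bound to haemopexin, at 3.29 ± 0.25. Cd163, the receptor for haptoglobin-bound haemoglobin, was called higher at day 4, at 1.30 ± 0.34, and at day 15, at 1.44 ± 0.34. Hpx, or haemopexin, was at 0.27 ± 0.38 at day 4, which did not pass, and at 1.56 and called under library size alone. The ferritin chains went apart, with Ftl1 at 3.25 ± 0.36 and Fth1 at -0.76 ± 0.25 at day 4, but Fth1 was at 0.54 under library size alone. In female day 4 replicate 3, with the highest Alas2, Hmox1 was 287 CPM, inside the range of the other 5 libraries of that day.

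Markers of other cells moved at the same times as Alas2, and their part in its changes was not tested. Among all tested genes 40.1%, 41.6%, 42.7% and 39.7% were called higher at days 4, 7, 11 and 15. The shares called lower were 33%, 29.9%, 29.7% and 29.3%. The 11 muscle fibre genes summed to 344420 to 493222 CPM in uninjured muscle and to 10387 to 63957, 22914 to 155697, 60419 to 147938 and 67423 to 138195 CPM at days 4, 7, 11 and 15, with 10, 10, 9 and 9 called lower. The 9 macrophage markers were all called higher at all 4 times and rose from 44.3 to 63.4 CPM to 2740 to 4050 CPM at day 4 in sum. Endothelial markers had 11 of 14 called lower at day 4 and 10 of 14 called higher at day 15 with TMM factors. With library size alone 9 were called higher and 1 lower at day 4, beside 12603 and 1482 of all 17136 tested genes. The endothelial markers summed to 850 to 1417 CPM in uninjured muscle and to 1513 to 2043 CPM at day 15. Platelet and megakaryocyte markers had 6 of 11 called higher at day 4 and 8 at day 15, and summed to 21.4 to 36.6 CPM in uninjured muscle and 113 to 293 CPM at day 4. In that list Pf4, which macrophages also express, was at 5.56 ± 0.44, while Ppbp was at 1.23 ± 0.47 at day 4. Circulating neutrophil markers had 6 of 7 called higher at day 4, with Csf3r at 5.64 ± 0.39, and Ngp was at 0 in uninjured muscle and at day 4. B cell markers had 2 of 6 called higher at each time and 1 called lower at days 4 and 7, a share called higher that is below the 39.7% to 42.7% of all genes. Of the red cell markers, Epb42 was at 0 in all 6 uninjured libraries, and none of Slc4a1, Ahsp, Epb42 and Rhag was at 0 in all libraries of day 4.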

How the data were processed

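RNA from 30 libraries of mouse tibialis anterior was measured as deposited counts, 1 per gene symbol and library, not normalized. Total RNA was extracted and made into libraries by a commercial laboratory, per the labels' protocols, and STAR, edgeR and mm39 are named, per the submitters' processing notes. No counting program, annotation, strand setting or rule for shared reads is named in the sources used here. Of the counts from 1 to 20, 65.5 to 77.5% were even in each library, and the cause was not tested.

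Genes were kept by filterByExpr over the 10 groups, scaled with TMM and fitted with edgeR 4.0.16 in R 4.3.3 (glmQLFit, 1 mean per group, all 30 libraries), and contrasts were tested with glmQLFTest and adjusted over 17136 genes (call under 0.05). SE is the log2 fold change divided by the root of F. Log2 CPM used a prior count of 2. Ratios added 0.5 to each count and were tested with SciPy 1.17.1 in Python 3.11.15. Alternatives were RLE scaling, library size alone, 2 filters, DESeq2 1.42.0, a 2-fold threshold, only the groups compared, a replicate block, halved or thinned counts, and each library left out.

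The genes, lists and tests were chosen with earlier results of these data known. All 5 genes were named in every library, with 24 genes always named, the 3 called genes of largest change per list at the day with most calls (mean of at least 1 CPM), and the genes most like Alas2. Further members of the lists were named after their values were seen, to show members that did not pass or moved the other way. Same-numbered libraries had a mean residual correlation of 0.0125 (135 pairs, lowest -0.532), beside -0.00633 for different numbers (270 pairs). The numbers were therefore not used to pair libraries, though a mean over pairs cannot exclude that some are paired. Replicates of a group differed far beyond sampling noise, with a chi-square at least 16.2 times its degrees of freedom, and none was counted as a duplicate. The planned ratios, correlations and sum of haemoglobin genes could not be computed on rows of 0. Some planned genes are not reported here, though list counts include them.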

Additional observations from a re-analysis of the deposited data

Results flagged for a closer look

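In 6 of 20 sets of 6 libraries examined, 1 library lay farther from the rest than Dixon's test at 95% allows. Chance gives about 1 set in 20 only for independent sets of normally distributed values. Here the values were not logged, every flagged library was the highest of its set, and most sets contain the Alas2 counts. The 6 sets therefore cannot be weighed against that rate. Female day 4 replicate 3 was the flagged library in 4 of the 6 sets. It had Alas2 at 48.7 CPM beside 18.2 CPM in the next library of day 4, and Slc4a1 at 2.63 beside 0.368 CPM. Its ratio of Alas2 to Alas1 was 0.777 beside 0.291, and that of Alas2 to Pecam1 was 0.538 beside 0.177. Female day 11 replicate 3, whose sex-linked genes go against its label, had Slc4a1 at 0.6 beside 0.245 CPM. Male uninjured replicate 1 had a ratio of Alas2 to Alas1 of 0.266 beside 0.0989.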

How the results depend on the processing

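The fall of Alas2 at day 7 kept its direction and its call under all 10 other settings and with each library left out (-2.35 to -1.88). At day 11 it did so except with library size alone, -0.64, and ran from -2.03 to -1.54 with each library left out. With library size alone Alas2 reversed at day 4 (0.88) and day 15 (0.11), as did Klf1 (0.79), Pecam1 (1.03), Alad (0.02), Uros (0.27), Ppox (0.93) and Fth1 (0.54) at day 4, and Urod (0.01), Alad (0.18) and Uros (0.77) at day 7. The cause was not tested. With only the groups compared Alas2 at day 15 was called, at -0.92. With each library left out Alas2 ran from -1.29 to -0.15 at day 4 and from -1.36 to -0.66 at day 15, and the ratio of Alas2 to Alas1 from 0.60 to 1.42, -0.62 to -0.08, -0.31 to 0.28 and 0.33 to 0.90 at the 4 times. Other results whose sign changed with 1 library left out ran from -0.97 to 0.39 for Alas2 at day 15 against day 4, and at day 4 from -0.17 to 1.66 for Slc4a1 and -0.44 to 1.91 for Ahsp, with the end opposite in sign to the full value reached without female day 4 replicate 3. Klf1 ran from -0.88 to 0.31 at day 4, the latter without female uninjured replicate 3, and Alas2 to Fech from -0.53 to 0.00 at day 7, the latter without male uninjured replicate 1. Hpx at day 4 was -0.06 with thinned counts. Genes called came to 6693, 5907, 6203 and 5299 with a 2-fold threshold, which by construction calls fewer, against 12526, 12259, 12406 and 11823. With the replicate block they were 12486, 12270, 12376 and 11801, and Alas2 was -2.18 at day 7 (adjusted p = 3.23e-04, edgeR), and the block changed the call of none of the 97 results reported. Slc4a1 and Ahsp have few counts per library, which limits their precision, and the reason for the empty globin rows was not tested.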
